A study of Mus musculus with 2 samples.

Results

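Accessible chromatin at 10 genes that govern blood and blood vessel cells was examined in cells sorted as spinal motor neurons. The genes were Spi1, Gata1, Klf1 and Ikzf1 of blood, Fli1 of blood and endothelium, and Kdr, Flt1, Tek, Cdh5 and Pecam1 of endothelium. They serve as a check for other cells in the sort, and the rule that picks their entries uses no measured height. An entry, which is 1 summit in the deposited peak list, was counted for a gene when it lay inside the gene's span. It was also counted when it lay within 100 kb and that gene's end was the nearest end of any protein-coding gene. This gave 85 of the 138387 entries, in 70 peak intervals. The study applied ATAC-seq, in which the Tn5 transposase cuts and tags open DNA, to GFP-positive cells that FACS had purified. The embryos were Hb9::GFP, C57/Bl6, of age e10.5 (days of gestation). Mnx1, formerly Hb9, lends its promoter to the GFP transgene, which marks mainly motor neurons, and any other cell that carries GFP or escapes the gate can enter the sort. The labels give 1 group of 2 replicates, do not say whether these were separate litters, and name no control group. The data are 1 peak list pooled over both, so replicate error is unknown throughout and differences were not tested.

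Blood and endothelial cells arise from closely related mesodermal precursors and share much of their regulation. Spi1 (PU.1) and Ikzf1 (Ikaros) direct the myeloid and lymphoid branches, Gata1 and Klf1 the red cell branch, and the ETS factor Fli1 acts in both tissues. Kdr and Flt1 are receptors for VEGF, Tek is the receptor for angiopoietins, and Cdh5 and Pecam1 hold endothelial cells together. Vessels grow into the embryonic neural tube from a plexus around it, and macrophages that become microglia also settle there, so both cell types lie close to motor neurons. Flt1 also has a described role in neural tissue, since motor neurons are reported to make its soluble form, which binds VEGF and restrains nearby vessels.

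Transcription starts were listed in a RefSeq table of promoters (GRCm38.p6, the assembly behind mm10) for 6 of the 10 genes. Its windows for Gata1, Klf1, Ikzf1, Kdr, Flt1 and Tek are shown because the starts with an entry differ visibly in sequence from those without one. Each line gives the 250 bases before the start, 5′ to 3′ on the gene's strand, with CpG dinucleotides in capitals. The first 3 starts had an entry within 1 kb and the last 3 had none.
Ikzf1, chr11:11685675-11685924, plus strand: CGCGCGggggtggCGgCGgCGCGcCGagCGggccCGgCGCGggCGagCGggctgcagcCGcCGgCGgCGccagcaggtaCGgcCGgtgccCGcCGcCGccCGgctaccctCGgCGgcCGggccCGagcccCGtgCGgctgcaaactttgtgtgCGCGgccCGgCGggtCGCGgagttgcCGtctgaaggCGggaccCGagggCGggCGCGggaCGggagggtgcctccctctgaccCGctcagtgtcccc
Kdr, chr5:75978456-75978705, minus strand: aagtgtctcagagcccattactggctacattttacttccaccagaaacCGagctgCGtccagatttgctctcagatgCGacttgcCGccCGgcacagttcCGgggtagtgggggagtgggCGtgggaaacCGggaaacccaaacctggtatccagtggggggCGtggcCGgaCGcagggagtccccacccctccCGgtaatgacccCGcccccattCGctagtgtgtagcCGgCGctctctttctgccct
Flt1, chr5:147726012-147726261, minus strand: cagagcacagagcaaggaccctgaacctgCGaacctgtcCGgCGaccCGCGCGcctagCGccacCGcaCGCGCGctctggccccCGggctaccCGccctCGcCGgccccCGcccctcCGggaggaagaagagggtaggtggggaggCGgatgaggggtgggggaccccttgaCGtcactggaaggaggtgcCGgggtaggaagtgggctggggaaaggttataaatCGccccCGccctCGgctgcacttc
Klf1, chr8:84901732-84901981, plus strand: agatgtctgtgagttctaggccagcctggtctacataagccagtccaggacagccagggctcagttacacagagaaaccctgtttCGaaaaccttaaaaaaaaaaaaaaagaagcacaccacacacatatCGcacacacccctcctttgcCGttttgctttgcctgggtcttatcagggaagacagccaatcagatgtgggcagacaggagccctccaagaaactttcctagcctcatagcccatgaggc
Gata1, chrX:7967911-7968160, minus strand: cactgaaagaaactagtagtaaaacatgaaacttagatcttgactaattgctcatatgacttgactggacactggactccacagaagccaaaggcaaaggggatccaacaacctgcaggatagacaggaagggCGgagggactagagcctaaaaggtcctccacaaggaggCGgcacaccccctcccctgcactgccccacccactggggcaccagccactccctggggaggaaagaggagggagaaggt
Tek, chr4:94739039-94739288, plus strand: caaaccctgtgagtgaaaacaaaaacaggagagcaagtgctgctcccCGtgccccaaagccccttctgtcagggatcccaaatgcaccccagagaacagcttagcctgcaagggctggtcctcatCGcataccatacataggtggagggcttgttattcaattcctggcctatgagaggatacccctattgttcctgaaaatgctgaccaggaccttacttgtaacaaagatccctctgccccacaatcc

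The values come from the authors' peak caller. Fold is the authors' ratio of reads at the summit to the local background, and reads are the pileup at the summit, solved from the fold and the −log10 p. The smallest pileup was 11 reads, the median 24 and the lowest background 5.37 reads. Where no entry is listed, the signal was not called or was removed by the filter, whose rule is not given, and closure is not shown. The 95% intervals given for reads are exact Poisson intervals that cover counting error only, since PCR copies are not independent molecules. In a bulk sample, fewer cells with an open site and less opening per cell cannot be told apart.

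The endothelial genes and Fli1 carried most of the entries, and the blood regulators few. Flt1 had 21 entries, Cdh5 14, Kdr 13, Fli1 12, Tek 7, Ikzf1 and Pecam1 6 each, Spi1 5, Klf1 1 and Gata1 none. The median was 6.5 per gene, against 3 over all 21887 protein-coding genes. An entry of any kind was present at 9 of the 10 genes, against 83.0% of all protein-coding genes. The genes differ in size, and per 100 kb of the sequence that the rule gives to a gene, the 10 genes had a median of 6.38 entries and all genes 6.0. On that scale Spi1 had the most, 12.3, ahead of Klf1 with 11, Cdh5 with 8.98 and Flt1 with 8.81. Fli1 had 6.70, Pecam1 6.05, Kdr 5.73, Ikzf1 4.61 and Tek 4.4. Inside the genes lay 50 of the 85 entries (58.8%), against 52.9% of all entries on the chromosomes.

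**Figure D1:**
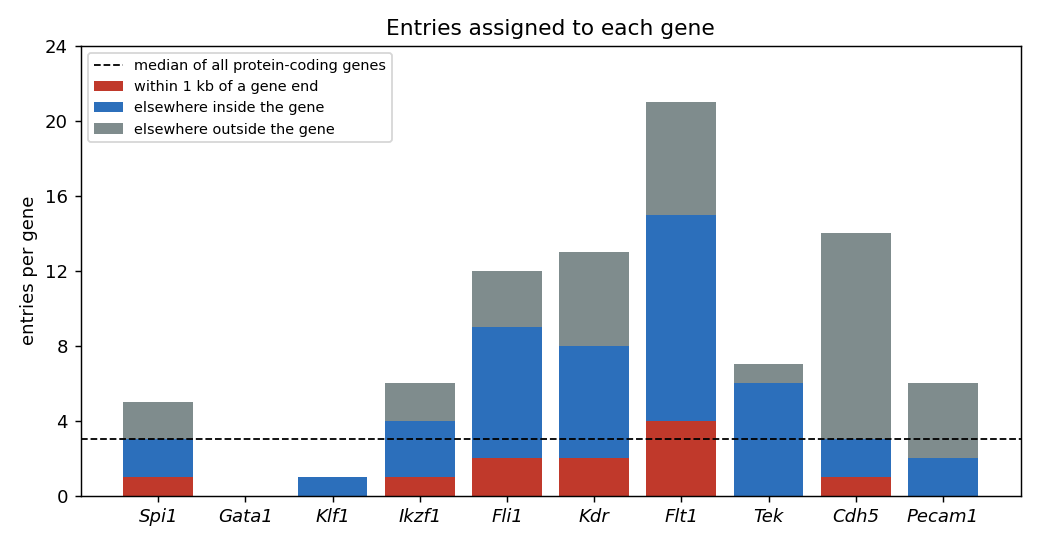
Number of entries counted for each gene (vertical axis), split by place relative to the gene, with the median of all protein-coding genes as a dashed line. Flt1 has 21 entries and Gata1 none, and 11 of the 14 entries of Cdh5 lie outside the gene.

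An entry within 1 kb of a gene end was present at 6 of the 10 genes, against 65.5% of all protein-coding genes. These were Spi1, Ikzf1, Fli1, Kdr, Flt1 and Cdh5, and the ends of Gata1, Klf1, Tek and Pecam1 had none. For Spi1, Fli1 and Cdh5 no start is listed, so the end with the entry need not be the start. The strongest gene-end entry of the 6 genes had a median of 6.29-fold, against 8.17-fold for all genes with such an entry. The values ran from 11.2-fold at Ikzf1 to 2.65-fold at Cdh5. Ikzf1 exceeded 83.8% of genes with a gene-end entry and Spi1 81.6%, while Cdh5 exceeded only 5.75% and Fli1 9.93%.

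Among the blood regulators, Spi1 and Ikzf1 had strong entries and Gata1 had nothing. Spi1, the master factor of myeloid cells, had 5 entries. Its strongest lay at chr2:91115008-91115648, inside the gene and 488 bp from the higher-coordinate end, with 10.98-fold and 128 reads (95% interval 107 to 152). The nearest listed start of another gene, that of Mybpc3, was 2873 bp from the summit. A pair of summits in the interval chr2:91078582-91079083, 3610 and 3465 bp outside the other end, had 49 and 44 reads. The 2 remaining entries lay inside the gene, with 33 and 18 reads. That of 18 reads, with 2.49-fold, was the nearest to the lower-coordinate end, 2109 bp away. No start of Spi1 is listed, so which end holds its start is not shown here.

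Ikzf1, a zinc finger factor of lymphoid cells, had the entry with the highest pileup of all 85. It had 155 reads (95% interval 132 to 181) and 11.2-fold at chr11:11684890-11686676. This interval of 1787 bp covered the whole printed CpG-rich window, and its summit lay 274 bp before the listed start. The same summit lay 16 bp from the end of Gm11999, so this entry could belong to either gene. The other 5 entries of Ikzf1 were weak, with 11 to 21 reads. The second listed start of Ikzf1, 4.5 kb from this summit, had no entry within 1 kb.

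Klf1, which activates globin genes in red cells, had a single entry of 9.44-fold and 114 reads (95% interval 94.0 to 137) at chr8:84902648-84903621. It lay inside this gene of 3.31 kb, 1205 bp downstream of the start, so that it fell just outside the window of 1 kb. The interval did not reach the printed bases before the start. Gata1, the founding factor of the red cell and platelet lineages, had no entry in its 17.4 kb span or in the sequence around it. The nearest entries lay 10.9 kb beyond its lower-coordinate end, counted for Hdac6, and 25.5 kb beyond the other, counted for Glod5. They had 19 and 22 reads.

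Fli1, an ETS factor of platelets and endothelium, had 12 entries of which 5 did not reach a q-value of 0.05. The strongest, 4.82-fold with 57 reads (95% interval 43.2 to 73.9), lay inside the gene at chr9:32540144-32541329, 2475 bp from the higher-coordinate end. At that end itself, 66 bp away, an entry had 3.43-fold and 45 reads (95% interval 32.8 to 60.2). Another, 879 bp inside that end, had 1.80-fold and 23 reads. The local background of both was 12.4 reads. Within the body of Fli1, 5 entries between 28.1 and 72.7 kb from the lower end had 11 to 17 reads over the lowest background. Ets1, another ETS factor, is the next gene, 92809 bp away, and the farthest entry outside Fli1 lay 42.2 kb from its end with 15 reads.

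The VEGF receptors had entries at their starts and strong sites inside the genes. Kdr, the main signalling receptor for VEGF, had 3 summits in 1 interval at its start, chr5:75977666-75978843. The one nearest the start, 37 bp downstream of it, had 7.67-fold and 72 reads (95% interval 56.3 to 90.7). The next had 70 reads and the last 31. An entry of the same pileup, 72 reads and 7.94-fold, lay inside the gene at chr5:75952030-75953000, 25.7 kb downstream of the start. A further interval inside the gene, chr5:75941454-75942397, held summits of 35, 26 and 14 reads. Beyond the far end, 5 entries between 35.5 and 86.6 kb away had 16 to 20 reads. They lie in the gap of 276105 bp between Kdr and Kit, the stem cell factor receptor, and the rule gives them to Kdr by distance alone.

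Flt1, which binds VEGF with little signalling, had the entry with the highest fold of the 85, and it was not at the start. It lay at chr5:147611438-147611670, 114 kb downstream of the start, with 16.97-fold and 107 reads (95% interval 87.7 to 129). Its fold exceeded that of 99.6% of all entries on the chromosomes, and its background was the lowest in the list. The interval was 233 bp wide, and the other 6 summits of Flt1 between 17.8 and 72.9 kb inside the nearer end had 13 to 26 reads. At the start, the interval chr5:147725030-147726584 held 6 summits, of which the one 15 bp before the start had 4.56-fold and 35 reads (95% interval 24.4 to 48.7). The highest of them had 38 reads. Upstream, 5 entries between 21.7 and 26.6 kb from the gene had 17 to 40 reads and lay inside the predicted gene Gm35541.

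Tek and Pecam1 were weak throughout. Tek, the angiopoietin receptor, had 7 entries of 12 to 24 reads, and its highest fold was 3.93. None lay near the start, from which the nearest was 13.4 kb away. Pecam1, an adhesion molecule of endothelium, platelets and leukocytes, had 6 entries of 11 to 21 reads, and only 2 of them had a q-value under 0.05. Its highest fold was 3.46, 5.8 kb beyond the lower-coordinate end.

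Cdh5, the cadherin of endothelial junctions, had its strongest sites outside the gene. The entry at its lower-coordinate end, 88 bp inside, had only 2.65-fold and 17 reads (95% interval 9.90 to 27.2). Below that end, 10 entries spread over 78.3 kb. The strongest had 7.07-fold and 55 reads (95% interval 41.4 to 71.6) at chr8:104091248-104091913, 9.95 kb from the gene. Others had 6.76-fold and 54 reads at 72.8 kb, 6.44-fold and 40 reads at 24.4 kb, and 5.15-fold and 35 reads at 39.4 kb. No protein-coding gene lies between Cdh5 and Cdh11, 1316120 bp away, so distance assigns all of them to Cdh5. When genes of any type competed for the entries, 4 of the 14 were still counted for Cdh5. The next entry farther out, 117 kb away and so beyond the reach of the rule, had 13 reads, and the farthest of the 85 within it lay 86.6 kb from Kdr with 18 reads.

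**Figure D2:**
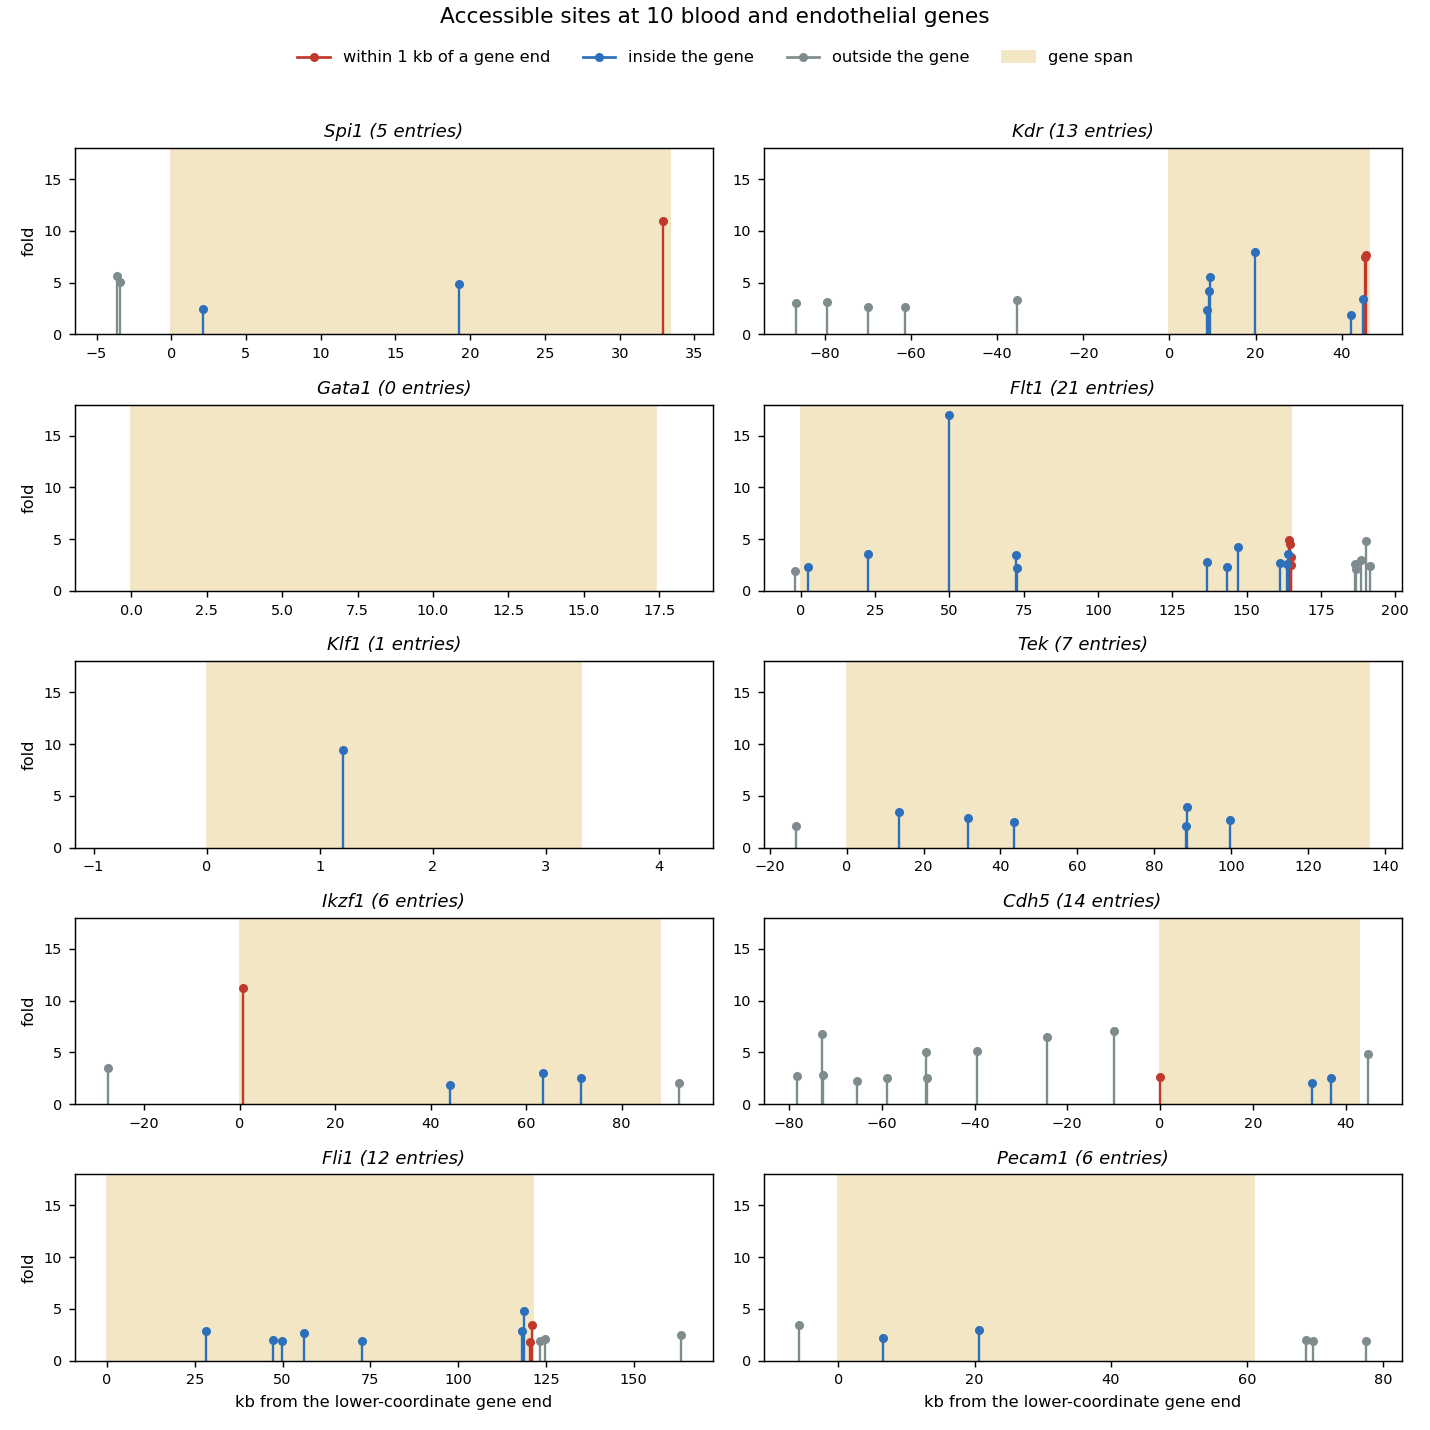
Fold of each entry (vertical axis) against distance in kb from the lower-coordinate end of its gene (horizontal axis, a different range per gene), with the gene span shaded. The 16.97-fold entry inside Flt1 stands above the others, the entries of Cdh5 lie mostly below its lower end, and Gata1 has none.

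The entries of the 10 genes had lower medians than entries at large. Their median was 2.83-fold and 20 reads, against 3.14-fold and 24 reads over all entries on the chromosomes. A q-value under 0.05 was reached by 66 of 85 (77.6%), against 82.3% of all entries. Pileups of 11 to 13 reads, next to the lowest in the list, made up 15 of 85 (17.6%), against 13.4% of all entries. Spi1, Klf1, Ikzf1 and Flt1 each had 1 entry of over 100 reads. The lowest of these, 107 reads at Flt1, exceeded 92.5% of all entries on the chromosomes in reads, so pileups of this size also occur among entries at large. The blood regulators had 12 entries with a median of 27 reads, and the endothelial receptors and adhesion genes 61 with a median of 20 reads. Per 100 kb of the sequence that the rule gives to a gene, the blood regulators did not have fewer. Their median was 7.82 entries, against 6.05 for the endothelial receptors and adhesion genes.

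**Figure D3:**
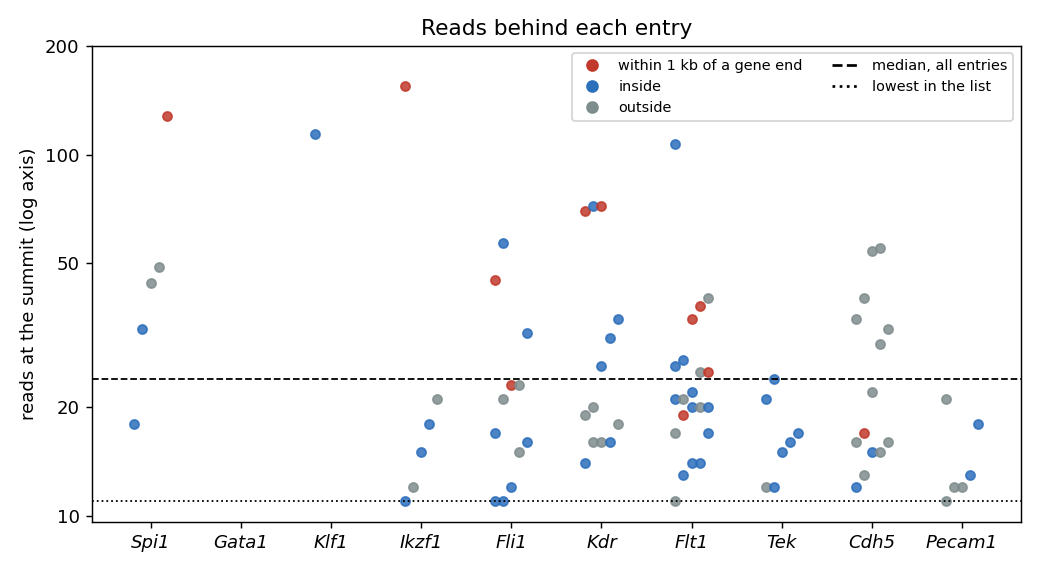
Reads at the summit of every entry (vertical log axis) for each gene, coloured by place, with the median of all entries (24 reads) dashed and the lowest pileup in the list (11 reads) dotted. Spi1, Klf1, Ikzf1 and Flt1 each have 1 entry above 100 reads, and all entries of Pecam1 lie at 21 reads or below.

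The starts with and without an entry separated by CpG content, which the rule did not use. The printed windows held 44 CpG at Ikzf1, 23 at Flt1 and 16 at Kdr, all with an entry within 1 kb. They held 3 at Klf1 and 2 each at Gata1 and Tek, and the second start of Ikzf1 held 1, all without an entry. The same relation held across the 21263 listed starts of protein-coding genes. An entry within 1 kb was present at 11% of starts with 0 to 2 CpG (95% exact binomial interval 10.1 to 11.9%) and at 35.6% of those with 3 to 5. The share was 98.8% with 16 to 25 CpG (98.5 to 99.1%) and 99.8% with 26 to 56. Each of the 7 starts was therefore in the state of most starts of its CpG class. Of the 6 genes with a listed start, 3 had an entry at one, against 66.5% of the 17492 such genes.

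**Figure D4:**
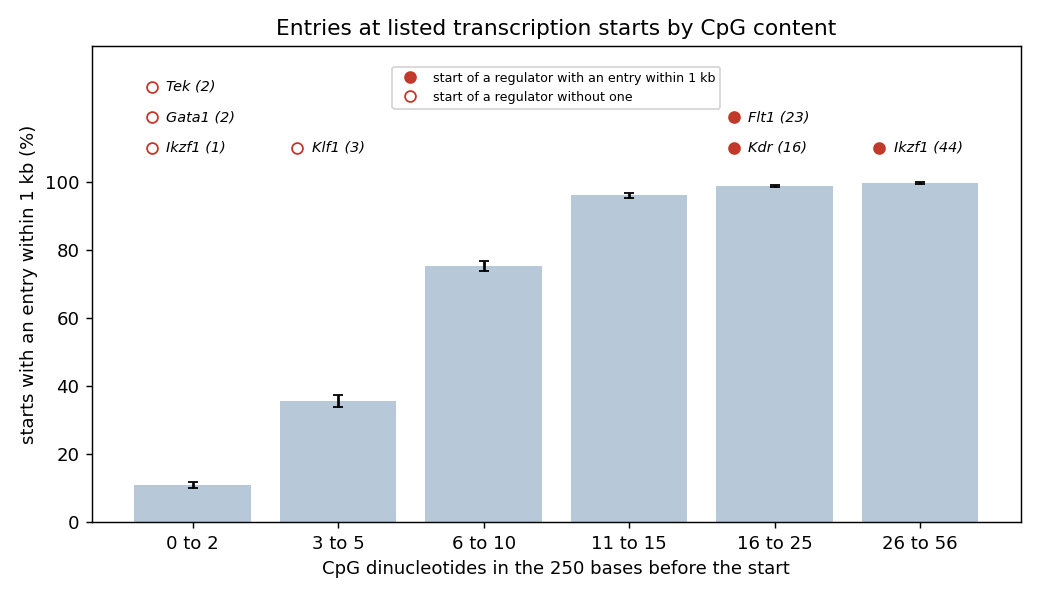
Share of listed transcription starts with an entry within 1 kb (vertical axis) by the number of CpG dinucleotides in the 250 bases before the start (horizontal axis), over all protein-coding genes, with exact binomial 95% intervals. The starts of the described genes are written above their class with their CpG number in parentheses (their height has no scale), filled where an entry was present: Ikzf1 (44), Flt1 (23) and Kdr (16).

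Short motifs of blood and endothelial factors were searched on both strands of these 250 bases. The ETS motif GGAAGT was found in the windows of Flt1, 52 bases before the start, and of Kdr, 217 bases before it, and in 19.7% of all 32851 windows of the table. The GATA motif GATAAG was found only at Klf1, 81 bases before the start, and in 6.55% of all windows. The KLF motif CCACCC was found at Gata1, Ikzf1, Kdr and Flt1 and in 28.1% of all windows. The SP motif GGGCGG was found at the same 4 genes and in 32.7%, with up to 3 copies at Flt1. The E-box CANNTG was found at Gata1, Klf1, Kdr and Tek and in 66.2%. The RUNX motif TGTGGT and the CCAAT box were each found only at Klf1, in 14.0% and 33.8% of all windows. A match of this kind is a run of letters and not a binding site.

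In wider lists, a gene-end entry was present at most transcription factors of blood and vessels and at fewer of the genes that mark mature blood cells, which was not tested. The share over all protein-coding genes, to be set beside each list count, was 65.5%. Of 20 related blood transcription factors, 17 had a gene-end entry, with a median of 9.5 entries per gene. Meis1 had 69, Mecom 56 and Bcl11a 26, and Meis1 and Bcl11a also act in neurons. An entry at a gene end can belong to a neighbour, which holds for every such count here. The highest gene-end folds were 8.09 at Cebpa, a granulocyte factor, 7.75 at Irf8, a macrophage factor, and 6.48 at Myb. A gene-end entry was found at 4 of 15 genes of macrophages and microglia and at 5 of 11 erythroid genes. Fcgr3 had 4.77-fold, P2ry12 2.36-fold and Tfrc, the transferrin receptor of all dividing cells, 12.6-fold. Ptprc, which marks all leukocytes, had none at its ends, although 16 entries were counted for it, the highest with 12.1-fold.

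No haemoglobin gene had a gene-end entry (0 of 7), and Hba-a1, Hba-a2, Hba-x, Hbb-bs, Hbb-y and Hbb-bh1 had no entry at all. Hbb-bt had 2 entries, the higher with 4.08-fold and 25 reads. Hba-a1 and Hba-a2, and likewise Hbb-bt and Hbb-bs, are near-identical copies, so reads there may have been lost or shared in alignment, and how these were handled is not given in the sources used here. Of 11 pan-leukocyte and platelet genes 5 had a gene-end entry, with 8.51-fold at Kit and 8.37-fold at Lcp1.

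Of 20 related endothelial transcription factors, 16 had a gene-end entry, against 65.5% of all protein-coding genes. The highest were 9.67-fold at Epas1, 9.13-fold at Hey2 and 8.23-fold at Ets2. Mef2c had 46 entries, Nr2f2 41 and Foxo1 21. Of 25 endothelial surface and vessel genes 13 (52%) had a gene-end entry, with 12.5-fold at S1pr1, 9.86-fold at Clec14a and 8.84-fold at Flt4, the receptor for VEGF-C. S1pr1 had 21 entries, Vwf 10 and Aplnr 9. The ligands and co-receptors of the VEGF and angiopoietin systems, listed together with the apelin gene Apln, had one at 10 of 11 genes. Vegfc had 9.52-fold, Nrp2 6.61-fold, Apln 6.28-fold, Angpt1 4.95-fold, Vegfa 4.59-fold and Vegfb 4.05-fold. Angpt2 had 3.85-fold, Pgf 3.34-fold, Angpt4 2.33-fold and Nrp1 2.28-fold. Vegfd had none at its ends, but 13.5-fold at its strongest entry elsewhere.

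**Figure D5:**
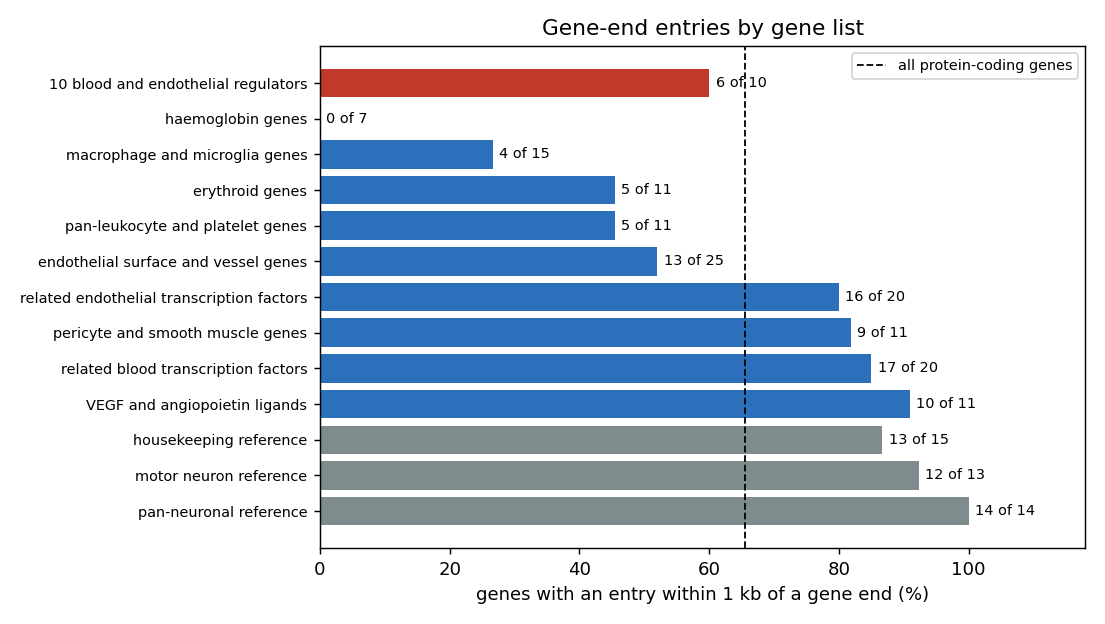
Share of genes with an entry within 1 kb of a gene end (horizontal axis) for each list, with the number of genes beside the bar and the share of all protein-coding genes (65.5%) as a dashed line. Haemoglobin genes (0 of 7) and macrophage and microglia genes (4 of 15) are lowest, and the described genes (6 of 10) lie near the line.

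Among starts with at most 5 CpG, an entry within 1 kb was present at 3 of 33 starts of related blood genes (9.09%) and at 2 of 14 of related endothelial genes (14.3%). Over all genes it was present at 20.9% of 8036 such starts, and in the pan-neuronal list at 5 of 7. The exceptions were P2ry12, Gfi1b and Ermap of blood and Clec14a and Stab1 of endothelium. Among starts with 11 CpG or more, 20 of 21 blood starts and 13 of 14 endothelial starts had one, against 98.3% of all. The start without one in both lists belonged to Erg.

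The genes that define the labelled cells had many sites. Of 13 motor neuron genes, 12 had a gene-end entry, against 65.5% of all protein-coding genes. The median was 16 entries per gene, or 16.4 per 100 kb, against 6.38 per 100 kb for the 10 blood and endothelial genes. The median density was 13 for 15 housekeeping genes, 12.6 for the ligands and co-receptors, 11.5 for the endothelial surface genes and 10.8 for 14 pan-neuronal genes, whose median was 17.5 entries. At an end, Isl1 reached 10.9-fold (244 reads) and Mnx1, whose promoter drives the GFP, 7.42-fold (406 reads). The gene-end entry of highest fold had 155 reads at Ikzf1 and 128 at Spi1. In the motor neuron list it ran from 34 reads at Chat and 38 at Lhx3 to 406 at Mnx1, with 142 at Onecut2 and 159 at Nkx6-1. Isl2 was the gene without a gene-end entry, although its listed start had 1 entry within 1 kb. Ebf1 had 9.27-fold at an end, Nkx6-1 7.24-fold, Onecut2 6.96-fold and Onecut1 4.21-fold. Lhx4 had 4.78-fold, Ebf2 3.37-fold, Slc18a3 5.10-fold and Slc5a7 9.90-fold. Of the defining genes of other cells, the 7 haemoglobin genes had no gene-end entry. In the list for macrophages and microglia, 4 of 15 had one, among them Fcgr3. The listed start of Fcgr3 had no entry within 1 kb. In the list of endothelial surface and vessel genes, 13 of 25 had one, among them Clec14a and Flt4. Kdr, Flt1 and Cdh5 also had one, whereas Tek and Pecam1 had none. The lists also differed in CpG content. At most 5 CpG lay before all 6 listed haemoglobin starts, 11 of 13 macrophage and microglia starts and 1 of 13 motor neuron starts. Of these starts, 0, 1 and 1 had an entry within 1 kb, against 20.9% of all starts of that class. In the motor neuron list 10 of 13 starts held 11 CpG or more, where 98.3% of all starts had one. Cell type was not tested apart from CpG content, and the part of other cells in the sort in these entries was not tested.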

How the data were processed

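ATAC-seq libraries of 2 replicates (8 to 9 PCR cycles, 75-nt paired-end reads) were analysed as 1 pooled, filtered peak list. Tools named in the submitters' processing notes are MACS2 2.2.7.1, SAMtools 1.7.2, BWA 0.7.1.7, cutadapt 0.6.2 and Trim Galore, with the build mm10. Their settings, the filter and whether cut positions were shifted for Tn5 are not given. The deposited fold is a ratio of reads at a summit to the local background of the caller. The deposited significance is the −log10 of the p-value and the q-value. The deposited score, which is 10 times the −log10 p without decimals in 99.999% of entries, entered no result. Reads were solved from fold and −log10 p under a Poisson tail, with the ratio (reads + 1)/(background + 1), and 99.96% of them were whole to within 0.01. The depth of each library is unknown.

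Genes came from a RefSeq table of GRCm38.p6, without strand, and starts from its promoter table. Coordinates are mm10, counted from 1. Of 170 genes in 12 further lists, 169 matched a symbol. The genes named are all 10 regulators, every motor neuron, haemoglobin and ligand gene, and from each other list the 3 with most entries and the 3 with the highest gene-end fold. One gene that this rule names is not reported here. P-values were not computed, since 1 pooled list allows no test. Alternatives changed the entries kept, the reach, the window and the competing genes. The regulators and lists were chosen with earlier results of these data known. The scripts (Python 3.11.15, scipy 1.17.1) were tested on simulated data.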

Additional observations from a re-analysis of the deposited data

How the results depend on the processing

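No paired analysis was possible because the data are 1 pooled list without columns for the replicates, and for the same reason neither replicate could be left out. Of 47 recomputed summary values, 35 stayed close to the reported value (counts within 1.5 times). The total of 85 entries fell to 34 when only the 50% of entries with the highest −log10 q were kept and to 44 with 20 reads or more, and the median per gene from 6.5 to 2.5 and 3. Over all genes the median was then 2 at each setting. With listed starts only, 3 of the 10 genes and 15 related endothelial genes had an entry, since only 6 and 24 genes have a listed start. The median of the strongest gene-end folds, 6.29, became 3.99 with a window of 500 bp. It became 7.67 with that 50% of entries, with 20 reads or more, with a window of 2 kb, with listed starts only and with overlap of the interval in place of the summit. It lay below the median of all genes at every setting. Of single genes, that 50% left 9 of 21 entries at Flt1, 3 of 12 at Fli1, 2 of 7 at Tek and 1 of 6 at Pecam1. Where genes of any type competed, 4 were left at Cdh5 and 3 at Pecam1. Gata1 had 0 and Klf1 1 at all 7 settings tried for entries. Weak sites rest on 11 to 20 reads, so their absence from a list is not evidence of closure.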

Other observations

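Genes of the cells that wrap vessels also had entries. Of 11 pericyte and smooth muscle genes, 9 had a gene-end entry, with a median of 4 entries per gene, against 65.5% and a median of 3 over all protein-coding genes. Kcnj8, a potassium channel subunit of pericytes, had 7.69-fold at an end, Notch3 5.68-fold and Abcc9 5.48-fold. Notch3 had 14 entries, Rgs5 8 and Des, the desmin of muscle, 7.

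Among the related blood and endothelial genes, 5 had an entry of over 14-fold, and none of these lay at an end of the gene. The share of all genes with such an entry is not given here, so the count is not particular to these lists. For scale, the strongest entry of Ikzf1, 11.2-fold, exceeded that of 82.4% of genes with an entry, and that of Flt1, 16.97-fold, 98.1%. Clec14a, an endothelial lectin, had its strongest entry at 17.1-fold and 108 reads, and Cd34, a surface protein of blood stem cells and endothelium, at 14.5-fold and 206 reads. Adgre1, a macrophage surface receptor, had 15.1-fold and 95 reads, Ets1 14.5-fold and 181 reads, and Klf4 14.1-fold and 119 reads. These genes were picked after their values were seen, except Clec14a and Cd34. The gene named is the one that the distance rule assigns, and its link to the site was not tested.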
